A study of Mus musculus with 30 samples.

Results

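Left ventricular expression of 10 genes of mitochondrial fusion, fission and mitophagy was examined in 2 separate mouse studies. The genes were *Mfn1*, *Mfn2* and *Opa1* for fusion, *Dnm1l*, *Fis1* and *Mff* for fission, and *Pink1*, *Bnip3*, *Bnip3l* and *Fundc1* for mitophagy. They were chosen by name as members of these pathways, and all 10 were found in both tables, which hold 49671 genes (peptide study) and 56386 features (antibody study). All 10 also averaged 10 counts or more per heart, the minimum for testing, which 11985 and 12274 genes passed. In the peptide study, 7 wild type male C57BL6J mice were given Aβ42, a recombinant human form of amyloid beta peptide, and 7 were given ScrAβ42, a scrambled control peptide. Injection was intraperitoneal and daily for 4 weeks from 12 weeks of age in the labels (10 to 12 weeks in the study's methods), and the dose is 1 mg per day in the labels but 1 µg per day in the study's text. In the antibody study, 8 wild type male C57BL6J mice received 3D6, an antibody that neutralises Aβ42, and 8 received a control antibody. The series description has the antibody mice also receiving Aβ42, whereas the study's methods describe a high-fat diet, begun soon after baseline heart scans at 12 weeks of age, with weekly antibody injections and no peptide. In either account both arms of a study shared all of this but the agent compared. The question put to the data was whether these genes differed between Aβ42 and ScrAβ42 hearts, and between 3D6 and control antibody hearts.

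Mitochondria in heart muscle are shaped by the joining and splitting of their membranes. Mitofusins 1 and 2, encoded by *Mfn1* and *Mfn2*, join outer membranes and *Opa1* joins inner membranes and holds the cristae, while the dynamin *Dnm1l* (Drp1) is drawn to the outer membrane by adaptors such as *Mff* and *Fis1* to divide the organelle. Damaged mitochondria are removed by mitophagy, either after the kinase *Pink1* builds up on them and starts their tagging with ubiquitin, or through the outer membrane receptors *Bnip3*, *Bnip3l* (Nix) and *Fundc1*, which bind LC3 proteins of the forming autophagosome. *Bnip3* is a well known target of HIF-1 under low oxygen, and *Bnip3l* clears mitochondria from maturing red cells.

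No difference of the 10 genes between the groups passed the test in either study. With Aβ42, 7 genes had a log2 fold change above 0 and 3 below, and the values lay between -0.19 and 0.11. With 3D6, 9 were above 0 and 1 below, between -0.08 and 0.26, and 6 were above 0 and 4 below, with a median of 0.03, when the mitochondrial share of counts was a covariate. In that refit *Pink1* was at 0.12, *Bnip3* at 0.10, *Mff* at 0.056 and *Fundc1* at 0.018, against 0.16, 0.18, 0.13 and 0.18 without the covariate. The smallest adjusted p among the 10 was 0.898 with Aβ42 and 0.946 with 3D6 (edgeR quasi-likelihood test, Benjamini-Hochberg over all genes). No gene of any kind passed an adjusted p of 0.05 in either study, so the share called among all genes was 0 in both. At an unadjusted p under 0.05, 0 of the 10 genes were found in either study, beside 780 of all genes (6.51%, of which 3.6% higher and 2.91% lower) with Aβ42 and 447 (3.64%, of which 1.32% higher and 2.32% lower) with 3D6. The values of the groups were separate for 0 of the 10 genes, beside 0.0918% of all genes with Aβ42 and 0 with 3D6. DESeq2 called 0 of the 10 as well, beside 12 genes (0.1%) and 0 genes.

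The hearts did not all resemble one another, and this bears on several of the genes. Total counts of the peptide hearts ranged from 4478991 to 6015767, and those of the antibody hearts from 6397189 to 8310480. Cardiomyocyte markers summed to between 42140.5 and 86134 CPM (counts relative to the TMM-scaled library size) in the peptide hearts and between 46953 and 57922 CPM in the antibody hearts, with all 8 of them found in every heart. In the peptide study, 5 atrial markers summed to more than 1000 CPM in 4 Aβ42 hearts and 1 ScrAβ42 heart, at 1154 to 8387 CPM, and to 3.81 to 158 CPM in the other 9. In the antibody study, 3 of the 3D6 hearts and 1 control heart had a high length slope, the gain in log2 CPM per doubling of transcript length relative to the other hearts, at 0.159 to 0.201 against -0.165 to 0.0348 in the other 12. The lowest slope, -0.165, was that of control antibody mouse 22. With 3D6, 5 of 5 endothelial markers had a lower fitted value (1 at an unadjusted p under 0.05 in edgeR), as had 5 of 5 fibroblast, 4 of 4 red cell, 3 of 4 macrophage and all 4 tested atrial markers. Atrial sums ranged from 1.05 to 666 CPM with 3D6 and from 0.819 to 2768 CPM with the control antibody, where mouse 15 alone was over 1000 CPM. Their medians went the other way from the fitted values, at 98.2 CPM with 3D6 and 2.87 CPM with the control antibody. The mean atrial score was also higher with 3D6, at 0.13 against -0.13. *Sln*, *Myl7*, *Bmp10* and *Mybphl* were at 0 in some heart. Without mouse 15 no sign of the 10 genes changed. Macrophage sums ranged from 41.3 to 75.2 CPM with 3D6 and from 42.3 to 86.5 CPM with the control antibody. Endothelial sums ranged from 547 to 686 CPM with 3D6 and from 566 to 869 CPM with the control antibody, fibroblast sums from 443 to 591 and from 464 to 719.5 CPM, and red cell sums from 782 to 1823 and from 805 to 2561 CPM. No endothelial, fibroblast, red cell or macrophage marker was at 0 in any heart. The part of these cell types in the differences with 3D6 was not tested beyond the refits with the red cell score, in which 8 of the 10 genes were above 0, and with the atrial score, in which 9 were.

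The bases just upstream of the start site are shown for *Mfn2* and *Opa1*, which followed each other from heart to heart in the antibody study, and for *Bnip3*, whose difference moved with the atrial markers described above. Each run is the 250 bases before a transcription start in the RefSeq table for GRCm38.p6, read 5′ to 3′ on the strand of the gene. Of the 10 genes, 9 matched that table. It lists 3 starts for *Mfn2*, of which 1 is shown, and 1 start each for *Opa1* and *Bnip3*. Capitals mark matches on either strand to the HIF core motifs ACGTG and GCGTG in *Mfn2* and *Bnip3*, and to the NRF1 palindrome in *Opa1*. The *Mfn2* window lies at chr4:147904699-147904948 on the minus strand, the *Opa1* window at chr16:29579084-29579333 on the plus strand and the *Bnip3* window at chr7:138909507-138909756 on the minus strand.
Mfn2: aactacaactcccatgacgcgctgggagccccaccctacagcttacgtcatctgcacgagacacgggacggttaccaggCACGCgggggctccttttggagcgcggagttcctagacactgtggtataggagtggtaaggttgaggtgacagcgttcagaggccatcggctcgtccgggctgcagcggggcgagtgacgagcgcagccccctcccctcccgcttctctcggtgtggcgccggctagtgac
Opa1: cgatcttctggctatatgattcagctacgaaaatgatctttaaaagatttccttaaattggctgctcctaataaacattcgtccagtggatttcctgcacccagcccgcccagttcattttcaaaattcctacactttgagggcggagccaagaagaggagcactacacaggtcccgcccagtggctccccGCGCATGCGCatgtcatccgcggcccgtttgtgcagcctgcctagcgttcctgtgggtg
Bnip3: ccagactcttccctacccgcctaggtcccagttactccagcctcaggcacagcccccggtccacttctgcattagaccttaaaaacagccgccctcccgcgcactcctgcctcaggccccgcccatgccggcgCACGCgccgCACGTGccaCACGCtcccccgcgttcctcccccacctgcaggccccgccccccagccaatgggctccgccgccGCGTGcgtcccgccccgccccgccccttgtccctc
The *Bnip3* window held 5 matches to the HIF cores, of which 2 overlap in the palindrome CACGTG, and it was 72.4% G and C. At least 1 HIF core match was present in 38.6% of all 32851 windows of the same length and at least 5 in 1.01%. The *Mfn2* window held 1 HIF core match. The *Opa1* window held the NRF1 palindrome, which 0.782% of all windows hold. Neither the ETS core CCGGAAG (6.91% of all windows) nor the ERR element TNAAGGTCA (1.14%) was found in these 3 windows. A match of letters is a description of the sequence and does not show that a factor binds.

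Per kilobase of transcript, *Pink1* and *Mfn2* were the most abundant of the 10 in both studies. In the peptide study the mean level over all 14 hearts was 357 ± 47.0 CPM per kb (SD) for *Pink1*, 273 ± 30.5 for *Mfn2* and 112 ± 16.4 for *Mfn1*. *Pink1* exceeded *Mfn2* in 14 of 14 hearts although their ranges overlapped. The next were *Fis1* at 80.6 ± 6.25 and *Mff* at 60.5 ± 5.40, whose ranges did not overlap. *Opa1*, *Bnip3* and *Dnm1l* followed at 44.2 ± 7.49, 42.3 ± 10.01 and 33.1 ± 3.04, and *Opa1* and *Bnip3* kept their order in only 9 of 14 hearts. The receptors *Bnip3l* and *Fundc1* were least abundant, at 13.5 ± 4.96 and 10.8 ± 0.919 CPM per kb, in this order in 10 of 14 hearts. In the antibody study *Pink1* was at 265 ± 38.7 and *Mfn2* at 131 ± 31.4 CPM per kb over 16 hearts. *Fis1*, *Bnip3* and *Mfn1* lay close together there at 66.7 ± 20.7, 61.2 ± 9.17 and 60.8 ± 7.17, with *Bnip3* above *Mfn1* in 8 of 16 hearts. The studies were run and normalised separately, so the higher place of *Bnip3* in the antibody study was not tested.

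Among the fusion genes, mitofusin levels were close in the Aβ42 and ScrAβ42 hearts. *Mfn1* (ENSMUSG00000027668; GRCm38 chr3:32529465-32579239) had a lowest, median and highest value of 266, 412 and 438 CPM with Aβ42 and of 298, 404 and 465 CPM with ScrAβ42. The groups overlapped, with 1 Aβ42 heart, named Abeta42_3457 in the labels, below every ScrAβ42 heart and ScrAbeta42_3441 and ScrAbeta42_3449 above every Aβ42 heart. For *Mfn1* the log2 fold change was -0.06 ± 0.12 (SE), with a 95% interval of -0.31 to 0.20 and an adjusted p of 0.957. *Mfn2* (ENSMUSG00000029020; chr4:147873599-147904704) had values of 820.5, 1165 and 1324 CPM with Aβ42 and of 1010.0, 1227 and 1281 CPM with ScrAβ42. Mouse Abeta42_3457 was again lowest, and the next Aβ42 heart was at 1144 CPM. The log2 fold change was -0.04 ± 0.10 (95% interval -0.25 to 0.18, adjusted p 0.965). *Opa1* (ENSMUSG00000038084; chr16:29579334-29654884) had values of 172, 267 and 333 CPM with Aβ42 and of 209, 251 and 289 CPM with ScrAβ42. The Aβ42 hearts spread wider, with 2 below and 2 above every ScrAβ42 heart, and the log2 fold change was 0.03 ± 0.13 (95% interval -0.25 to 0.31, adjusted p 0.980).

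With 3D6, the means of all 3 fusion genes were above those of the control antibody, by amounts within the spread of the hearts. *Mfn1* had a lowest, median and highest value of 199, 222 and 239 CPM with 3D6 and of 139, 212 and 244 CPM with the control antibody. The groups overlapped, and control mice 18 and 22 lay below every 3D6 heart and control mouse 3 above. For 3D6 this gave a log2 fold change of 0.07 ± 0.10 (95% interval -0.14 to 0.27, adjusted p 0.946), which was 0.0058 without mouse 22 and 0.10 without control mouse 3. *Mfn2* had values of 468, 554 and 769 CPM with 3D6 and of 252, 558 and 716 CPM with the control antibody. The medians were nearly equal, and 3 of the 8 3D6 hearts lay above every control heart, all 3 of them hearts with a high length slope. The log2 fold change was 0.16 ± 0.17 (95% interval -0.20 to 0.52, adjusted p 0.946), and it was 0.063 without mouse 22 and 0.099 without 3D6 mouse 4. *Opa1* had values of 90.0, 121 and 179 CPM with 3D6 and of 43.1, 113 and 159.7 CPM with the control antibody. Its log2 fold change was 0.26 ± 0.21 (95% interval -0.18 to 0.70, adjusted p 0.946), and the same 3 hearts lay above the control range. The *Opa1* value was 0.15 without control mouse 22 and 0.36 without control mouse 8, and with the mitochondrial share as a covariate it was 0.041.

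**Figure D1:**
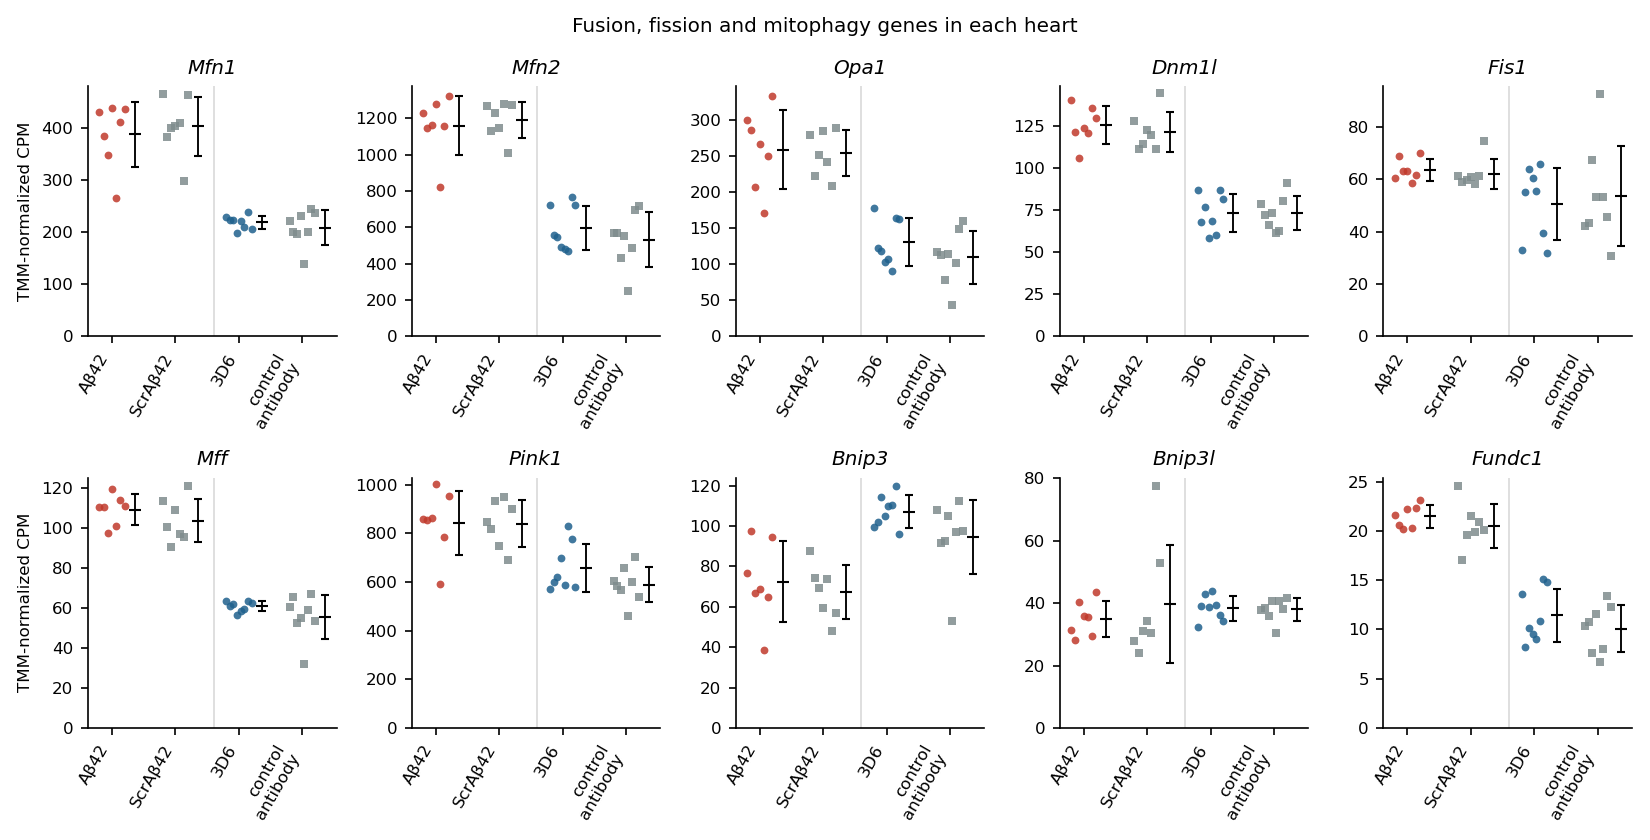
TMM-normalised CPM of each gene (vertical axes from 0) in each heart of the 4 groups, with the mean and SD beside the points. Within each study the groups overlap for all 10 genes, control antibody mouse 22 is lowest for 8 of them, and the studies were normalised separately.

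Fission gene levels were also close in the peptide groups. *Dnm1l* (ENSMUSG00000022789; chr16:16312230-16358959) had a lowest, median and highest value of 106, 124 and 141 CPM with Aβ42 and of 111, 119.8 and 145 CPM with ScrAβ42. The groups overlapped almost wholly, and the log2 fold change was 0.05 ± 0.08 (95% interval -0.12 to 0.21, adjusted p 0.947). *Fis1* (ENSMUSG00000019054; chr5:136953275-136966234) was narrow in both groups, at 58.6, 63.2 and 70.0 CPM with Aβ42 and 58.4, 60.9 and 74.9 CPM with ScrAβ42. One ScrAβ42 heart, mouse ScrAbeta42_3449, stood above the rest of its group, which reached 61.4 CPM. The log2 fold change was 0.04 ± 0.07 (95% interval -0.10 to 0.17, adjusted p 0.951). *Mff* (ENSMUSG00000026150; chr1:82724890-82752394) had values of 97.5, 110.4 and 119 CPM with Aβ42 and of 90.1, 100.1 and 121 CPM with ScrAβ42, with 6 of 7 Aβ42 hearts above the ScrAβ42 median. Its log2 fold change was 0.07 ± 0.07 (95% interval -0.08 to 0.23, adjusted p 0.898).

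With 3D6, *Dnm1l* had a lowest, median and highest value of 58.2, 72.9 and 87 CPM, and of 61.4, 72.7 and 91.4 CPM with the control antibody. These are overlapping ranges with nearly equal medians, and the log2 fold change was 0.00 ± 0.11 (95% interval -0.22 to 0.23, adjusted p 0.998). *Fis1* was the only one of the 10 genes with a mean below that of the control antibody, with values of 31.8, 55.5 and 66.0 CPM with 3D6 and of 30.8, 49.6 and 92.7 CPM with the control antibody. Both groups were wide, and the highest value of all was that of mouse 22. The log2 fold change was -0.08 ± 0.20 (95% interval -0.51 to 0.34, adjusted p 0.957), and it turned to 0.08 without mouse 22. *Mff* had values of 56.2, 61.6 and 63.6 CPM with 3D6 and of 32.0, 56.7 and 66.9 CPM with the control antibody. The 3D6 hearts were tightly grouped (coefficient of variation 4.29%) inside a wider control range (19.6%), with 7 of 8 above the control median, and the log2 fold change was 0.13 ± 0.11 (95% interval -0.10 to 0.36, adjusted p 0.946). Control mouse 22 at 32.0 CPM set the lower end of that range, the next control heart was at 52.5 CPM, and the *Mff* value was 0.050 without it.

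Among the mitophagy genes, *Pink1* (ENSMUSG00000028756; chr4:138313409-138326307) had a lowest, median and highest value of 590.2, 859 and 1002 CPM with Aβ42 and of 691, 846 and 947 CPM with ScrAβ42. The means were almost the same, 843 ± 132 and 840.0 ± 95.1 CPM (SD), and the log2 fold change was 0.01 ± 0.11 (95% interval -0.23 to 0.24, adjusted p 0.995). *Bnip3* (ENSMUSG00000078566; chr7:138890836-138909519) ranged from 38.5 through a median of 68.7 to 97.3 CPM with Aβ42 and from 47.9 through 69.5 to 87.9 CPM with ScrAβ42. The lowest heart of each group, Abeta42_3457 and ScrAbeta42_3448, was one of the 5 hearts with high atrial markers. For *Bnip3* the log2 fold change was 0.11 ± 0.18 (95% interval -0.26 to 0.48, adjusted p 0.946).

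*Bnip3l* (ENSMUSG00000022051; chr14:66985239-67008877) had the widest spread of the 10 genes in the ScrAβ42 group, with a coefficient of variation of 47.9%. It ranged from 24.1 through a median of 31.1 to 77.4 CPM there, and from 28 through 35.6 to 43.5 CPM with Aβ42. Mice ScrAbeta42_3448 and ScrAbeta42_3449, at 77.4 and 52.9 CPM, lay above every Aβ42 heart, and 5 of 7 Aβ42 hearts lay above the ScrAβ42 median. *Bnip3l* had a log2 fold change of -0.19 ± 0.23 (95% interval -0.67 to 0.29, adjusted p 0.921). *Fundc1* (ENSMUSG00000025040; chrX:17556564-17572325) was at 20.2, 21.7 and 23.1 CPM with Aβ42 and at 17.1, 20.1 and 24.5 CPM with ScrAβ42. All 7 Aβ42 hearts lay above the ScrAβ42 median but within the ScrAβ42 range, and the log2 fold change was 0.07 ± 0.08 (95% interval -0.10 to 0.23, adjusted p 0.920).

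In the antibody study the mitophagy genes all had a higher mean with 3D6, again within the spread. *Pink1* ranged from 569.8 through a median of 610.4 to 829 CPM with 3D6 and from 462 through 590.5 to 702 CPM with the control antibody, and 3D6 mice 4 and 24 lay above every control heart. Its log2 fold change was 0.16 ± 0.10 (95% interval -0.06 to 0.38, adjusted p 0.946). *Bnip3* ranged from 96.2 through 107 to 120.0 CPM with 3D6 and from 53.0 through 97.3 to 112 CPM with the control antibody. With 7 of 8 3D6 hearts above the control median, it had an unadjusted p of 0.138 in edgeR, like *Pink1* the smallest of the 10 to 3 digits, at a log2 fold change of 0.18 ± 0.12 (95% interval -0.06 to 0.42, adjusted p 0.946). *Bnip3l* ranged from 32.5 through 38.9 to 44.0 CPM with 3D6 and from 30.6 through 38.3 to 41.7 CPM with the control antibody, and did not show the spread seen in the ScrAβ42 hearts. Its log2 fold change was 0.02 ± 0.08 (95% interval -0.16 to 0.19, adjusted p 0.983). *Fundc1* ranged from 8.24 through 10.5 to 15.1 CPM with 3D6 and from 6.68 through 10.6 to 13.4 CPM with the control antibody. The 3D6 hearts above the control range were the 3 with a high length slope, and the log2 fold change was 0.18 ± 0.16 (95% interval -0.16 to 0.52, adjusted p 0.946).

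The 95% intervals above come from the fits without a covariate and with all hearts. They do not cover the refits with covariates or with hearts left out. Over the 10 genes these intervals reached at most from 0.627-fold to 1.40-fold with Aβ42 and from 0.704-fold to 1.62-fold with 3D6. The standard errors lay between 0.065 and 0.23 with Aβ42 and between 0.082 and 0.21 with 3D6 on the log2 scale. The narrowest were those of *Fis1* and *Mff* in the peptide study. The median log2 fold change of the 10 genes was 0.03 with Aβ42, beside 0.00 over all genes, and 0.14 with 3D6, beside -0.01. Values above 0 were found for 50.5% of all genes with Aβ42 and for 47.4% with 3D6. For 4 of the 10 genes (*Mfn1*, *Mfn2*, *Fis1* and *Bnip3l*) the differences had opposite signs in the 2 studies, beside 53.6% of all genes tested in both. All 10 genes were measured in the same hearts, so these counts are not 10 independent observations. In bulk tissue fewer cells of a type and less RNA per cell cannot be told apart.

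**Figure D2:**
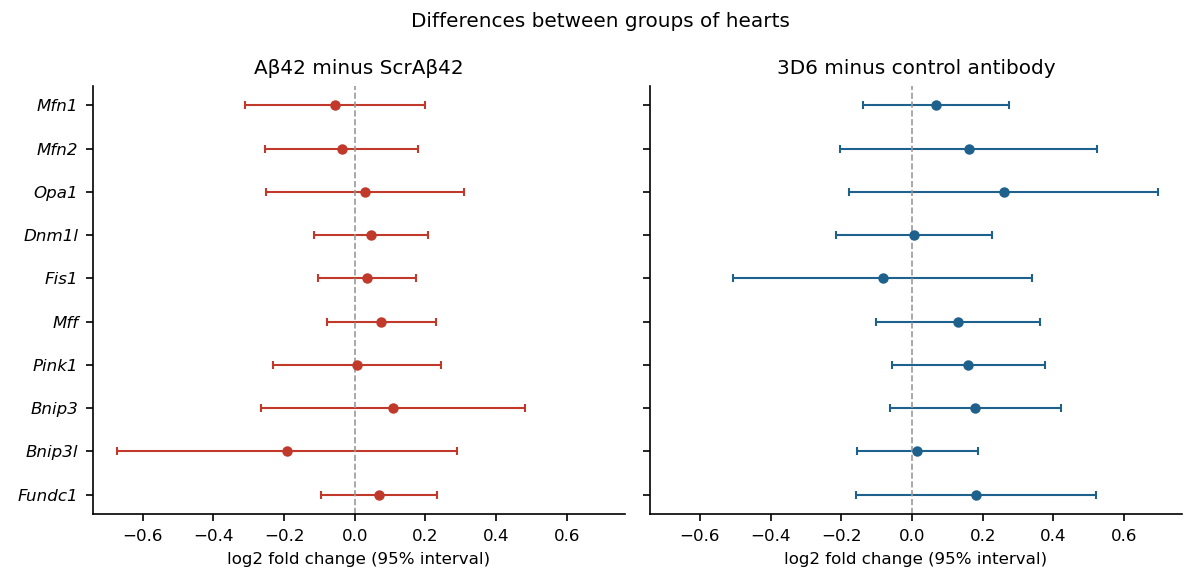
Log2 fold change of each gene with its 95% interval from edgeR, for Aβ42 minus ScrAβ42 (left) and 3D6 minus control antibody (right). Each interval crosses 0, and the widest are those of Bnip3l with Aβ42 and of Opa1 with 3D6.

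One heart of the antibody study, control antibody mouse 22, set the lower end of most of these genes. It was the lowest of all 16 hearts for *Mfn1*, *Mfn2*, *Opa1*, *Mff*, *Pink1*, *Bnip3*, *Bnip3l* and *Fundc1*, and the highest for *Fis1*. Over all genes tested it was the lowest heart for 24.8% and the highest for 25.2%. It had the lowest share of mitochondrial counts, 25.9% against 28.7% to 37.8% in the other hearts, and the highest sums of 16 for fibroblast (719.5 CPM), endothelial (869 CPM), macrophage (86.5 CPM) and red cell (2561 CPM) markers. Its cardiomyocyte marker sum of 54294.5 CPM lay inside the range of the others. Their part in its values was not tested. Without it the median log2 fold change of the 10 genes with 3D6 was 0.07 in place of 0.14, with 8 above 0. *Bnip3* was then at 0.097, *Fundc1* at 0.12, *Dnm1l* at -0.022 and *Bnip3l* at -0.020 on the log2 scale. Without 3D6 mouse 24, *Pink1* was at 0.10, and without 3D6 mouse 4, *Fundc1* was at 0.11.

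The hearts at the other end of the length slope differed in the opposite sense. In the 4 hearts with a high slope, *Mfn2* was between 716 and 769 CPM, against 252 to 695 CPM in the other 12. *Opa1* was at 159.7 to 179 against 43.1 to 148 CPM and *Dnm1l* at 81.7 to 91.4 against 58.2 to 80.4 CPM, again without overlap. *Fis1*, whose transcripts average 782 bases and are the shortest of the 10, was at 30.8 to 39.4 CPM in these hearts and at 42.4 to 92.7 CPM in the others. Ranges were separate in this way for these 4 of the 10 genes and for 12.6% of all genes. The slope is computed from the levels of all genes by length, so these separations restate it for single genes and are not independent of it. Its part in the differences between groups was not tested beyond the refits: without the 4 hearts, the log2 fold change of *Mfn2* was 0.01, that of *Opa1* 0.08 and that of *Dnm1l* -0.09, and *Fis1* turned to 0.08 and *Fundc1* to -0.03.

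**Figure D3:**
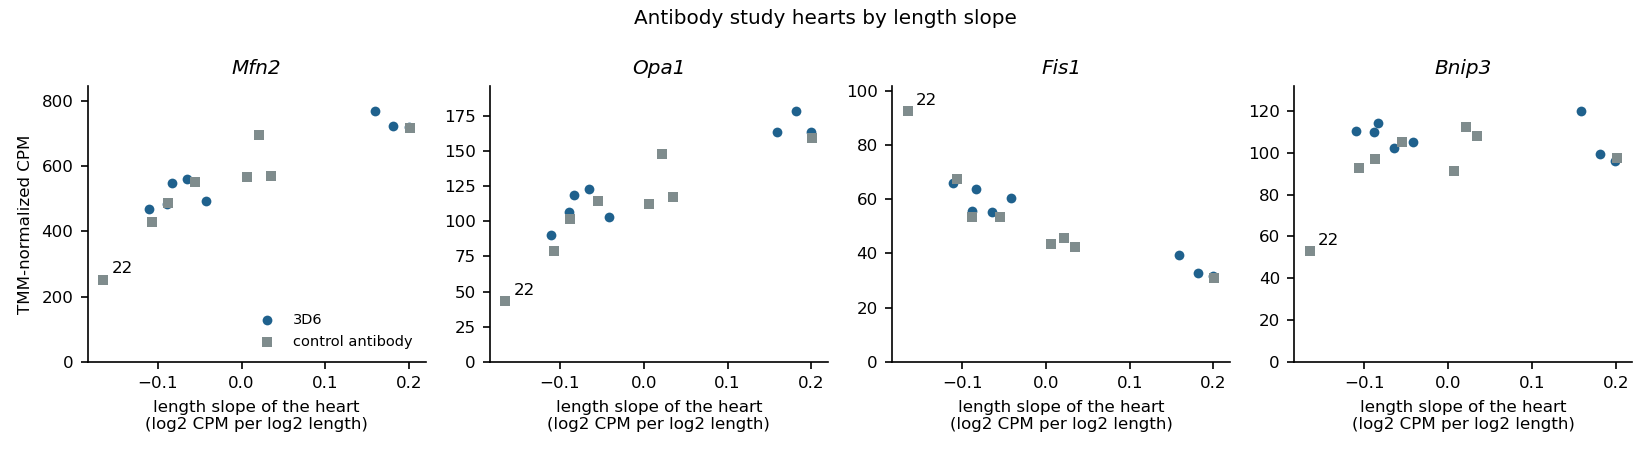
CPM of Mfn2, Opa1, Fis1 and Bnip3 (vertical axes from 0) against the length slope of the heart (log2 CPM per log2 transcript length) in the 16 hearts of the antibody study. Mfn2 and Opa1 are lowest and Fis1 highest at the lowest slope, in control mouse 22, and the 4 hearts with slopes of 0.159 to 0.201 include 3 of the 3D6 group.

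In the peptide study, the *Bnip3* difference depended on which hearts and covariates were included. Atrial markers (*Sln*, *Myl7*, *Myl4*, *Bmp10* and *Mybphl*) had a higher mean with Aβ42 in 5 of 5 cases. Of these, 1 (*Bmp10*) was at an unadjusted p under 0.05 in edgeR (0.00242, adjusted p 0.641). The atrial sum ranged from 12.3 to 8387 CPM with Aβ42 and from 3.81 to 3652 CPM with ScrAβ42. *Sln* and *Bmp10* were at 0 in some hearts. In the 5 hearts with an atrial sum over 1000 CPM, *Bnip3* was between 38.5 and 76.6 CPM, against 57.1 to 97.3 CPM in the other 9. Adjusted for the atrial score, *Bnip3* had a log2 fold change of 0.40 ± 0.16 (unadjusted p 0.0214, adjusted p 0.567 in edgeR), and without the 5 hearts one of 0.30 ± 0.14 (unadjusted p 0.0436, adjusted p 0.737). Neither passed the adjusted threshold. Leaving out the 5 hearts kept only 3 Aβ42 and 6 ScrAβ42 hearts. *Bnip3* was at 68.7, 94.6 and 97.3 CPM in these 3 Aβ42 hearts and between 57.1 and 87.9 CPM in the 6. Other refits gave smaller values for *Bnip3*, 0.030 with the red cell score and 0.076 with the mitochondrial share as a covariate. Leaving out single hearts moved it between 0.024 (without Abeta42_3452) and 0.22 (without Abeta42_3457), with 0.033 without Abeta42_3460 and 0.039 without ScrAbeta42_3448. In both atrial refits 9 of the 10 genes had values above 0, with medians of 0.11. *Opa1* was at 0.20 with the atrial score and at 0.17 without the 5 hearts, in place of 0.03. *Pink1* was at 0.16 and 0.11, in place of 0.01. Neither gene had an unadjusted p under 0.05 in edgeR in these refits.

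Mouse Abeta42_3457 had the highest atrial sum of the peptide study, 8387 CPM, and the lowest cardiomyocyte sum, 42140.5 CPM. It was the lowest of the 14 hearts for *Mfn1*, *Mfn2*, *Opa1*, *Pink1* and *Bnip3*, and over all genes it was the lowest for 22.2% and the highest for 21.3%. It also had the lowest mitochondrial share (12.9%), the highest length slope (0.0849) and the highest sum of adipocyte markers (519 CPM) of the peptide hearts. Of 5 adipocyte markers, 4 had a higher fitted value with Aβ42, 2 of them at an unadjusted p under 0.05 in edgeR, and each of the 5 was at 0 in some heart. The adipocyte sum ranged from 0.396 to 519 CPM with Aβ42 and from 0 to 48.4 CPM with ScrAβ42. Without it, *Mfn1* and *Mfn2* had log2 fold changes of 0.02 and 0.03. The part of atrial and adipose tissue in the differences between groups was not tested beyond these refits.

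The 2 highest *Bnip3l* values of the peptide study were found in the hearts with the most red cell marker counts. Mice ScrAbeta42_3448 and ScrAbeta42_3449 had the highest sums of the 4 markers *Hbb-bs*, *Hba-a1*, *Hba-a2* and *Alas2*, 14121 and 8894 CPM, whereas the other 12 hearts lay between 506 and 5806 CPM. All 4 markers had a lower mean with Aβ42, none was at 0 in any heart, and their sum ranged from 506 to 4539 CPM with Aβ42 and from 717 to 14121 CPM with ScrAβ42. Adjusted for the red cell score, *Bnip3l* had a log2 fold change of 0.15 ± 0.15 in place of -0.19, and without mouse ScrAbeta42_3448 it was 0.06. Adjusted for the atrial score it was -0.45 ± 0.19 (unadjusted p 0.0344, adjusted p 0.611 in edgeR). In the antibody study the heart with the highest red cell sum, mouse 22 at 2561 CPM, had the lowest *Bnip3l* value, 30.6 CPM. The sign of the *Bnip3l* difference with Aβ42 therefore depended on which measure was held constant and on 1 heart.

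**Figure D4:**
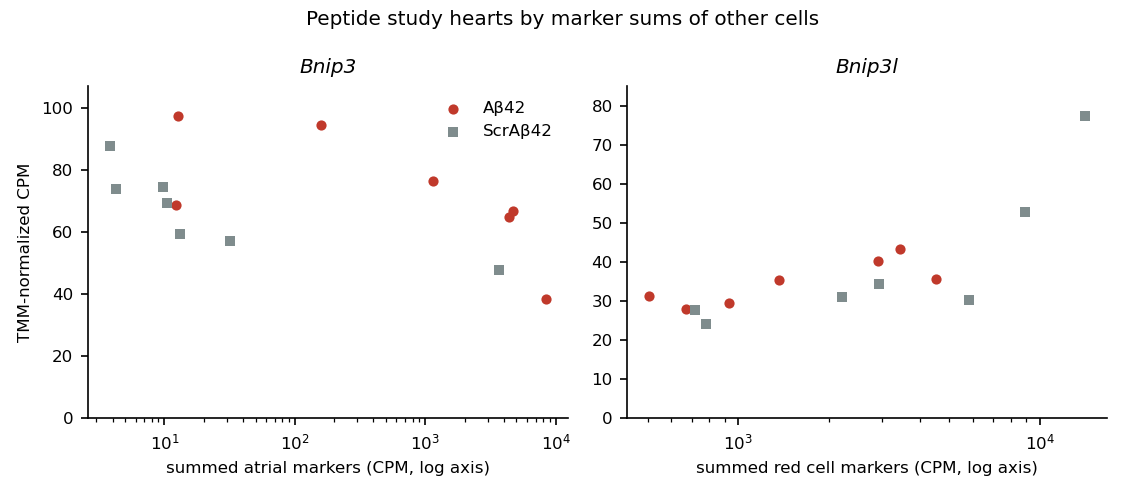
CPM of Bnip3 against the summed atrial markers (left) and of Bnip3l against the summed red cell markers (right) in the 14 hearts of the peptide study, with logarithmic horizontal axes in CPM. The lowest Bnip3 values lie at high atrial sums, and the 2 highest Bnip3l values, 77.4 and 52.9 CPM, belong to the ScrAβ42 hearts with the highest red cell sums.

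The antibody table held estimates for single transcripts, which showed which isoforms made up each gene. Of 74 transcripts of the 10 genes, 29 averaged 10 counts or more over the hearts and 17 made up at least 10% of their gene. *Fis1*, *Pink1*, *Fundc1*, *Bnip3* and *Opa1* were each counted mostly as 1 protein-coding transcript, with mean shares of 95.7% for *Fis1-201*, 97.4% for *Pink1-201*, 97.2% for *Fundc1-201*, 90.1% for *Bnip3-201* and 88.7% for *Opa1-206*. *Mfn1* was divided between *Mfn1-201* (48.1%) and *Mfn1-202* (46.4%), and *Mff* among several transcripts led by *Mff-202* (44.6%) and *Mff-201* (21.1%). *Bnip3l* was divided among *Bnip3l-201* (47.9%), *Bnip3l-202* (33.3%) and the non-coding *Bnip3l-205* (14.4%). *Dnm1l-201* held 65.3% of its gene, *Dnm1l-203* 12.7% and *Dnm1l-206*, a transcript with a retained intron, 19%.

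The shares of some transcripts varied widely between hearts, and mouse 22 was again extreme. *Mfn2-201* held 83.7% of *Mfn2* on average and *Mfn2-204* 14.2%, but in mouse 22 they held 16.9% and 82.8%. In the same heart *Mfn1-202* was listed at 0, *Mfn1-201* held 97.9% of its gene and the retained intron *Dnm1l-206* 64.6%. *Pink1-202*, a 3-exon transcript of 1465 bases, held 36.1% of *Pink1* in mouse 22 and between 0.0976% and 2.02% in the other 15 hearts. Of the 29 transcripts tested, 0 passed an adjusted p of 0.05 in edgeR, beside 0 of all 20857 transcripts. At an unadjusted p under 0.05 there was 1, beside 2.40% of all transcripts. It was *Pink1-202*, with a log2 fold change of -3.58 ± 1.15 and an unadjusted p of 0.00672 in edgeR (adjusted p 1.00). This transcript is named because of that value and not by the rule for transcripts, and without mouse 22 the count of such transcripts was 0. Transcripts of 1 gene share most of their sequence, so their estimates depend on how Salmon divided shared reads.

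**Figure D5:**
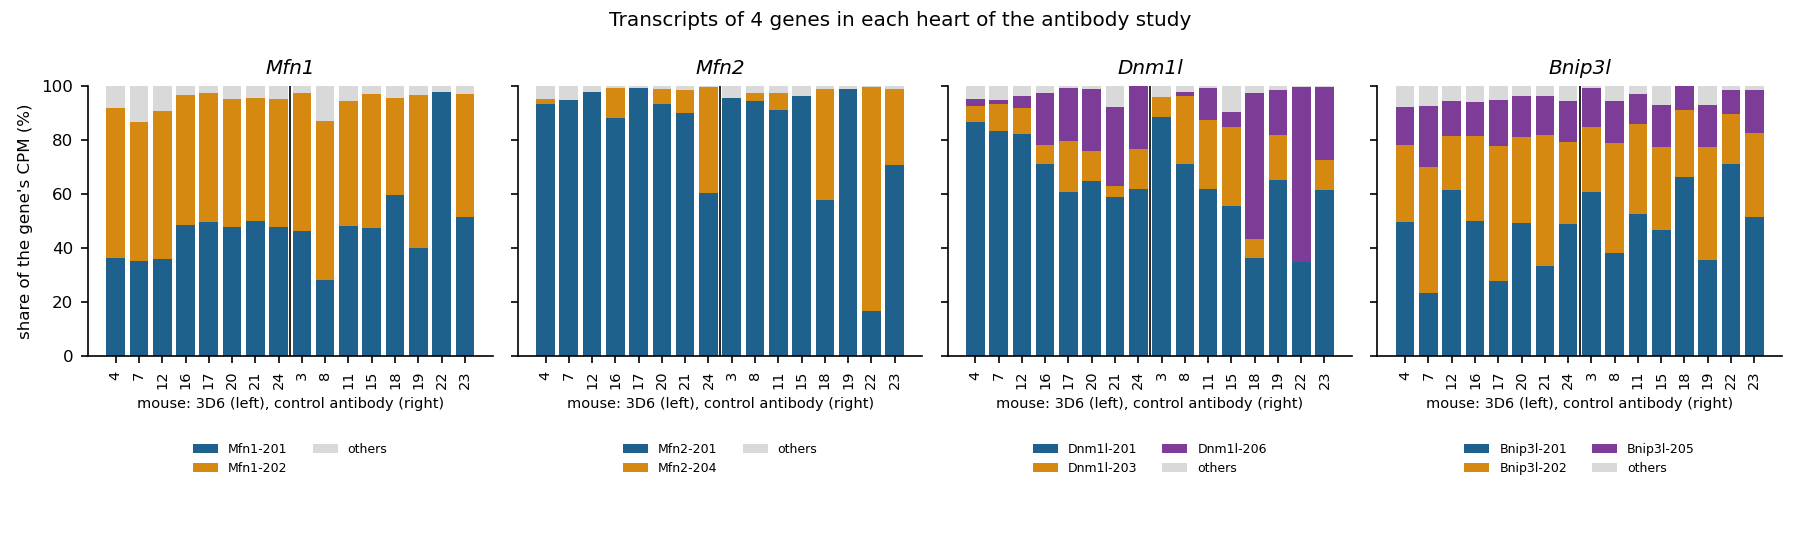
Share of the gene's CPM (%) held by each transcript with at least 10% of its gene, for Mfn1, Mfn2, Dnm1l and Bnip3l, as stacked bars per heart of the antibody study (3D6 to the left of the line, control antibody to the right). In mouse 22, Mfn1-202 is listed at 0, Mfn2-204 holds 82.8% and Dnm1l-206 holds 64.6%.

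The 10 genes were also compared with one another from heart to heart. Because the hearts fall into clusters, this was done within the larger cluster of each study, on log2 CPM with the group means removed. In the peptide study these were the 9 hearts with low atrial sums, 3 Aβ42 and 6 ScrAβ42. In the antibody study they were the 12 hearts with a slope under 0.1, 5 with 3D6 and 7 with the control antibody. Of the 45 pairs in each study, 34 had a positive Pearson r among the peptide hearts and 36 among the antibody hearts. Over all 90 pairs, 42 had an adjusted permutation p under 0.05, 8 of them among the peptide hearts and 34 among the antibody hearts. With Spearman's rho the count was 15, of which 3 were among the peptide hearts and 12 among the antibody hearts. Without control mouse 22 the count over both studies was 1. Many antibody pairs then had a smaller r, such as *Mff* and *Bnip3*, at 0.28 in place of 0.91. Mouse 22 is not a peptide heart, so the r of the 8 peptide pairs could not change. They no longer passed, because the adjustment runs over the 90 pairs together. Their adjusted p thus depended on the many small p of the antibody pairs with mouse 22 included. The 1 pair left was *Mfn2* and *Opa1*, with r = 0.97 and rho = 0.97 over 11 hearts (permutation p 1e-05 for r, the smallest that 100000 resamples can give, and 2e-05 for rho, adjusted p 0.0009). With mouse 22 included r was 0.99, and r was 0.96 without the 2 hearts farthest from the *Mfn2* median, mice 22 and 3. Both genes have long transcripts, averaging 4312 and 5800 bases, and the length slope of these hearts ranged from -0.165 to 0.0348. In the peptide study the same pair had r = 0.37 over 9 hearts (exact permutation p = 0.301, adjusted p = 0.382), with the 5 hearts high in atrial markers not included, and this p does not show that the genes are unrelated. The largest r there was that of *Dnm1l* and *Fis1*, 0.86 (exact permutation p = 0.01, adjusted p 0.0282). Its rho of 0.58 did not pass (exact permutation p = 0.108, adjusted p 0.194), and r was 0.43 without mice ScrAbeta42_3449 and ScrAbeta42_3442. *Mfn1* and *Dnm1l* passed with both measures, at r = 0.82 and rho = 0.88 (exact permutation, adjusted p 0.0126 and 0.0308). So did *Dnm1l* and *Mff*, at r = 0.81 and rho = 0.85 (exact permutation, adjusted p 0.0279 and 0.0389). Without mice ScrAbeta42_3441 and ScrAbeta42_3449 the former r was 0.74, and without ScrAbeta42_3449 and ScrAbeta42_3442 the latter was 0.78. Both are among the 8 peptide pairs above, whose adjusted p depends on the antibody pairs.

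Other genes of the same pathways were taken from 7 lists with 102 genes found, of which 98 were tested in each study. With Aβ42, 2 of the 98 were higher and 2 lower at an unadjusted p under 0.05 in edgeR, or 4.08% beside 6.51% of all genes, and 0 passed an adjusted p of 0.05. With 3D6, 0 of the 98 were found at an unadjusted p under 0.05, beside 3.64% of all genes. The median log2 fold change of the 98 genes was -0.03 with Aβ42 and 0.03 with 3D6. With Aβ42, 34 of the 98 had values above 0 and 64 below, beside 50.5% of all genes above 0. With 3D6, 58 were above 0 and 40 below, beside 47.4% of all genes above 0. Of 15 tested regulators of fusion and fission, 12 had values below 0 with Aβ42 (median -0.10) and 6 with 3D6 (median 0.05). One of them was *Mief1*, a receptor for *Dnm1l* on the outer membrane, at 25.7 ± 1.95 CPM with Aβ42 and 30.2 ± 5.44 CPM with ScrAβ42 (SD). All 7 Aβ42 hearts lay below the ScrAβ42 median for *Mief1*, at a log2 fold change of -0.23 ± 0.11 (unadjusted p 0.0444, adjusted p 0.752 in edgeR).

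The related receptor *Mief2* had a log2 fold change of -0.10 ± 0.13 with Aβ42, and the outer membrane deubiquitinase *Usp30* one of -0.03 ± 0.11. In the list of inner membrane proteases and cristae proteins, 0 of 15 genes were found with either agent. *Oma1* and *Yme1l1*, which cut Opa1, had values of 0.05 ± 0.13 and 0.00 ± 0.05 with Aβ42 and of 0.06 ± 0.13 and 0.04 ± 0.11 with 3D6. In the list of the *Pink1* pathway, 0 of 14 were found with either agent.

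Of 11 other mitophagy receptors and their regulators, 0 were found in either study. Of 21 genes of the autophagosome and lysosome, 1 was found with Aβ42 (4.76%, beside 6.51% of all genes). This was *Atg5*, part of the LC3 conjugation machinery, at 14.3 ± 0.802 CPM with Aβ42 and 12.3 ± 1.63 CPM with ScrAβ42. All 7 Aβ42 hearts lay above the ScrAβ42 median, at a log2 fold change of 0.22 ± 0.09 (unadjusted p 0.0278, adjusted p 0.714 in edgeR). Of 6 genes of mitochondrial transport, 6 had values below 0 with Aβ42 and 3 with 3D6, beside 64 and 40 of the 98 genes of all lists. *Trak2*, a motor adaptor, was at 218 ± 21.5 CPM with Aβ42 and 249 ± 34.6 CPM with ScrAβ42 (log2 fold change -0.20 ± 0.09, unadjusted p 0.0492, adjusted p 0.761 in edgeR). Of 16 other HIF-1 and FoxO targets 1 (6.25%, beside 6.51% of all genes) was found with Aβ42, *Pfkfb3*, a regulator of glycolysis. It ranged from 19.8 to 118 CPM with Aβ42 (mean 45.4 ± 33.7 SD, median 32.7) and from 20.2 to 31.5 CPM with ScrAβ42 (mean 25.4 ± 4.28, median 25.3). The log2 fold change was 0.85 ± 0.32 (unadjusted p 0.0185, adjusted p 0.703 in edgeR), and the Aβ42 heart at 118 CPM drew that mean above its median. With 3D6 the log2 fold changes of these 4 genes were 0.10 for *Mief1*, 0.09 for *Atg5*, 0.07 for *Trak2* and 0.05 for *Pfkfb3*.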

How the data were processed

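Left ventricular total RNA of 30 mice had been sequenced by the authors (TruSeq Stranded Total RNA, NovaSeq), and the submitters' processing notes name Salmon and GRCm38. In the peptide study the deposited table held whole-number counts per Ensembl gene. The antibody table, as deposited, held estimated counts of single transcripts, which were summed to genes and rounded to whole numbers. Gene names and transcripts were taken from GENCODE vM21 of GRCm38, a different release from that in the study's methods. It held 99.48% of the peptide genes and 99.21% of the antibody transcripts, and 0.381% of the estimated counts lay on transcripts without an entry. A total of 1 column of the tables matched no sample and was not used. One pathway gene, *Ppptc7*, is not analysed here.

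Each study was fitted separately, since the tables were made separately. Genes averaging 10 counts or more over the hearts entered edgeR 4.0.16 in R 4.3.3 (TMM, quasi-likelihood, two-sided, Benjamini-Hochberg over all genes), and CPM are TMM-normalised. The 2 deposited tables ran to between 4478991 and 8310480 counts per heart. Replicates are separate mice by their numbers, and no pair of hearts agreed within sampling noise. The test recovered known changes in simulated data. These changes were larger than any difference of the 10 genes, and the simulated hearts held no clusters. The simulation therefore does not show how small a difference could have been found here. Alternatives were DESeq2 1.42.0, other scalings, no filter, covariates for marker scores, mitochondrial share and length slope, and leaving out hearts. The length slope and red cell covariates and the removal of 4 or 5 hearts at a time were chosen after seeing the data. Levels per kb were CPM divided by the count-weighted mean transcript length of the gene in the antibody study. Correlations used scipy 1.17.1 and numpy 2.4.6, with exact permutation for 9 hearts and 100000 resamples for 12, two-sided, adjusted over 90 pairs. Here exact means that all orders of the 9 hearts were used. Hearts of both groups were permuted together after the group means were removed, so the permutation p are approximate. The correlations were made within the larger cluster of hearts rather than over all hearts as first planned. The text names all 10 genes, every pathway gene with an unadjusted p under 0.05 in either study, *Oma1*, *Yme1l1*, *Usp30*, *Mief1* and *Mief2* whatever their values (1 further gene of this rule is not reported here), and transcripts that lead or hold at least 10% of their gene. The 10 genes and the lists were chosen with earlier results of these data known.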

Additional observations from a re-analysis of the deposited data

Results flagged for a closer look

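Of 40 sets of values looked at (10 genes in 4 groups), 5 held a heart far from the others of its group by Dixon's test of gaps, and chance picks out about 1 in 20 such sets. Control antibody mouse 22 accounted for 3 of them. It was at 139 CPM for *Mfn1*, where the next heart of its group was at 196 CPM, at 32.0 CPM for *Mff* with the next at 52.5 CPM, and at 53.0 CPM for *Bnip3* with the next at 91.4 CPM. Mouse Abeta42_3457 was at 820.5 CPM for *Mfn2*, below the next Aβ42 heart at 1144 CPM. Mouse ScrAbeta42_3449 was at 74.9 CPM for *Fis1*, above the next ScrAβ42 heart at 61.4 CPM. Values that fall in 1 heart come from the same library and are not independent of one another.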

How the results depend on the processing

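The 10 genes passed an adjusted p of 0.05 under none of the alternatives run. The number with an unadjusted p under 0.05 was 0 in both studies and 0 without any single heart, but 2 with the atrial score as a covariate and 1 without the 5 hearts high in atrial markers in the peptide study (*Bnip3* in both, *Bnip3l* in the former). The pathway genes past that p with Aβ42 numbered 4, against 1 with the atrial score, 7 with the mitochondrial share and 13 with the length slope as a covariate, and 2 to 7 when single hearts were left out (2 without Abeta42_3455, ScrAbeta42_3441, ScrAbeta42_3442, ScrAbeta42_3447 or ScrAbeta42_3449, and 7 without ScrAbeta42_3448). With 3D6 they numbered 0, against 4 with the mitochondrial share, 1 with the length slope, 1 with the red cell score and 2 without the 4 hearts of high slope, and 0 to 2 without single hearts. For transcripts the count of 1 was 0 in DESeq2 and 4 without the filter, and 0 to 2 without single hearts (0 without mouse 22, 2 without mouse 4 or 8). The 42 pairs of correlated genes became 22 with total count scaling, 41 with all hearts pooled and 1 to 48 without single hearts, the lowest without mouse 22.

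Signs turned in these cases. With Aβ42, the atrial score gave 0.13 for *Mfn1* and 0.082 for *Mfn2*, the mitochondrial share -0.015 for *Pink1*, the red cell score 0.15 for *Bnip3l*, and leaving out the 5 hearts 0.030 for *Mfn2* and 0.095 for *Bnip3l*. With 3D6, total count scaling gave -0.038 for *Dnm1l* and -0.028 for *Bnip3l*, with the median of all genes at -0.06. The mitochondrial share gave -0.020 for *Mfn1*, -0.030 for *Mfn2*, -0.11 for *Dnm1l*, 0.19 for *Fis1* and -0.0028 for *Bnip3l*. The length slope gave -0.050 for *Dnm1l* and 0.060 for *Fis1*, the red cell score -0.020 for *Dnm1l*, and leaving out the 4 hearts -0.092 for *Dnm1l*, 0.077 for *Fis1* and -0.034 for *Fundc1*. Without single hearts, values ran with Aβ42 from -0.12 to 0.018 for *Mfn1*, -0.074 to 0.032 for *Mfn2*, -0.041 to 0.11 for *Opa1*, -0.040 to 0.076 for *Pink1* and -0.29 to 0.059 for *Bnip3l*. The same ranges, without a change of sign, were 0.016 to 0.091 for *Dnm1l*, 0.012 to 0.086 for *Fis1*, 0.044 to 0.12 for *Mff* and 0.027 to 0.11 for *Fundc1*. With 3D6 they ran from -0.033 to 0.057 for *Dnm1l*, -0.17 to 0.078 for *Fis1* and -0.020 to 0.050 for *Bnip3l*. The causes were not tested. No paired analysis was possible because the groups compared share no mouse numbers.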
